A study of Mus musculus with 15 samples.

Results

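The genes described here were 39 imprinted mouse genes, named one by one in a list, of 53843 annotated genes and 21755 protein-coding genes. The list names genes known to be imprinted, and its rule uses no measured value. The list held 33 protein-coding genes and 6 noncoding RNA genes, with 23 expressed mainly from the paternal allele and 16 from the maternal allele in at least some tissues. A gene was called marked in a mouse when an H3K4me3 island, the enriched region that the peak caller SICER2 reports, lay within 1 kb of any of its annotated transcription start sites. By this rule 21 of the 39 genes were marked in at least 1 of 15 livers, 18 in none, 13 in at least 8 and 3 in all 15.

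H3K4me3, trimethylation of lysine 4 on histone H3, was profiled by PAT-ChIP-seq, a chromatin immunoprecipitation made from formalin-fixed, paraffin-embedded tissue, in C57BL/6 (C57BL/6J in the study's methods) female mice with 3 mice and 3 libraries per diet. The 5 diets were a standard diet (SD), caloric restriction (CR), a high-fat diet (HF), a diet with yellow corn (YD) and a diet with purple corn (RD), and all but CR were eaten freely. YD and RD differed in the anthocyanins of near-isogenic corn lines, so RD against YD addressed the anthocyanins and each diet against SD the diet as a whole. All mice started their diet at 3 months of age and were fed for 10 months, while the samples are labelled with an age of 12 months. Chromatin came from 4 sections of the fixed liver of each mouse, so each list mixes all liver cells, and fewer cells of a type cannot be told apart from less signal per cell. The strain is inbred and the lists carry no allele, so which parental copy carried an island cannot be told apart.

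Genomic imprinting is the expression of a gene from 1 parental copy, set by DNA methylation that differs between egg and sperm at imprinting control regions and is kept in all somatic cells. At most such regions the maternal copy is methylated, and a CpG-rich promoter on the paternal copy is free to carry H3K4me3. Other imprinted promoters gain their difference later, through noncoding RNAs or insulators of the same cluster, and many are expressed in the embryo, placenta or brain and little in adult liver.

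The lists held between 7825 (YD mouse 1) and 33752 (CR mouse 3) islands, and protein-coding genes were marked in 17.5 to 54.6% of cases per library. The 10 hepatocyte markers used to check the tissue were marked in 5 to 10 genes per library, 8 of them in at least 8 libraries and 5 in all 15. Alb was marked in 8 libraries, and Serpina1c and Cyp7a1 in 6 each. Of 6 Kupffer cell markers, Clec4f was marked in 2 libraries and Adgre1 and Cd5l in 1 each, all from HF. Timd4, Vsig4 and Csf1r had no island in any library. The library names take a form with PATChIP in 5 libraries (CR mice 1 and 2, HF mice 2 and 3, RD mouse 1) and with ChIP in the other 10.

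Promoter sequences are shown for 3 contrasts that the values below turn on: a pair of antisense RNAs at control regions, Kcnq1ot1 marked in every liver and Airn in few; a pair of genes at 1 locus, Blcap marked in every liver and Nnat in none; and a pair of genes whose windows hold copies of the hexamer bound by ZFP57, Mest often marked and Nap1l5 never. Each runs from 250 bases before to 50 bases after a start, from RefSeq on GRCm38.p6, 5′ to 3′ on the gene's strand, and the capitals mark TGCCGC or its reverse complement GCGGCA. The windows are chr7:143296498-143296797 (minus strand) for Kcnq1ot1, chr17:12741061-12741360 (plus) for Airn, chr2:157566312-157566611 (minus) for Blcap, chr2:157559828-157560127 (plus) for Nnat, chr6:30737800-30738099 (plus) for Mest and chr6:58907077-58907376 (minus) for Nap1l5.
Kcnq1ot1: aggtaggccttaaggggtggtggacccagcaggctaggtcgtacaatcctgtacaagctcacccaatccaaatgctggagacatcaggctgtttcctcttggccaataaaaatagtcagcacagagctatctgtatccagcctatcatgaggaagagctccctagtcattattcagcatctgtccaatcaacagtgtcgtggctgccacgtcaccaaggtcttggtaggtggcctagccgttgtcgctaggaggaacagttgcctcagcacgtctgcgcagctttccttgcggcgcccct
Airn: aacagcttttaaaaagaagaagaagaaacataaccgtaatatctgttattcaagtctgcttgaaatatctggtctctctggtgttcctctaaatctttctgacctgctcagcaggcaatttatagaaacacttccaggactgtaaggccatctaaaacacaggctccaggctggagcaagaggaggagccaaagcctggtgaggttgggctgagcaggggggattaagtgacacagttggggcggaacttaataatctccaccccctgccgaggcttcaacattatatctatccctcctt
Blcap: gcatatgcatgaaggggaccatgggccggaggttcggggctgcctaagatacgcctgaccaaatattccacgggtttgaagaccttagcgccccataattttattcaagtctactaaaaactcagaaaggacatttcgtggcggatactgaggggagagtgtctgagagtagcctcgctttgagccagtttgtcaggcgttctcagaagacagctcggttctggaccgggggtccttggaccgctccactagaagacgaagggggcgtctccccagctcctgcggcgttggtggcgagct
Nnat: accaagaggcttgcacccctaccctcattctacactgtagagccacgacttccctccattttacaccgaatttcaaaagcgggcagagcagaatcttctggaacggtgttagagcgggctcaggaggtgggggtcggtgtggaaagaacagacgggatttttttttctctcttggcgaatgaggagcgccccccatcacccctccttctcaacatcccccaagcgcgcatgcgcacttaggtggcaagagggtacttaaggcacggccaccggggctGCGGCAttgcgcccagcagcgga
Mest: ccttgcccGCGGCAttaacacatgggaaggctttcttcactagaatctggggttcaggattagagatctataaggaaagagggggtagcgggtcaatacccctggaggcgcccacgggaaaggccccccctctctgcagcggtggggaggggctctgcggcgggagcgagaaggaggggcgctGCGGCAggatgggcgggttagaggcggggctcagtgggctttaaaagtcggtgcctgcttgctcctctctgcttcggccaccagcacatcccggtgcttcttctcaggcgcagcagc
Nap1l5: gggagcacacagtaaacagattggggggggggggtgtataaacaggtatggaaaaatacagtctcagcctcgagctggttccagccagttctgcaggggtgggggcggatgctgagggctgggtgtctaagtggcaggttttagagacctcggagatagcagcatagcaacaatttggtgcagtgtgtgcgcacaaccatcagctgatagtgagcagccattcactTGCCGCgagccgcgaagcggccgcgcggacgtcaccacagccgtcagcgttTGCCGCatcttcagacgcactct

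The hexamer was found 2 times in the windows of Mest and Nap1l5, once in that of Nnat and not in those of Kcnq1ot1, Airn and Blcap. CpG dinucleotides numbered 17 in each of the windows of Blcap, Nnat, Mest and Nap1l5, 9 in that of Kcnq1ot1 and 3 in that of Airn. The hexamer was also counted from 500 bp before to 500 bp after each group of nearby starts. It occurred there 3 times at Airn, 1 time at the marked Blcap start and never at Kcnq1ot1. Copies at the shown Mest start, Nap1l5 and Nnat numbered 10, 5 and 6. Searched on both strands, the hexamer was present in 11 of 47 promoter windows of the 30 imprinted genes with a RefSeq entry (23.4%) and in 3813 of 32851 windows of all genes (11.6%), and at least 2 copies were present in 4 (8.51%) and 503 (1.53%). The hexamer itself contains a CpG, and the median window held 14 CpG dinucleotides in the imprinted genes and 7 in all genes. Windows of 1 gene also overlap each other, as the pair for Mest does, so the hexamer shares are a description of letters only.

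**Figure D1:**
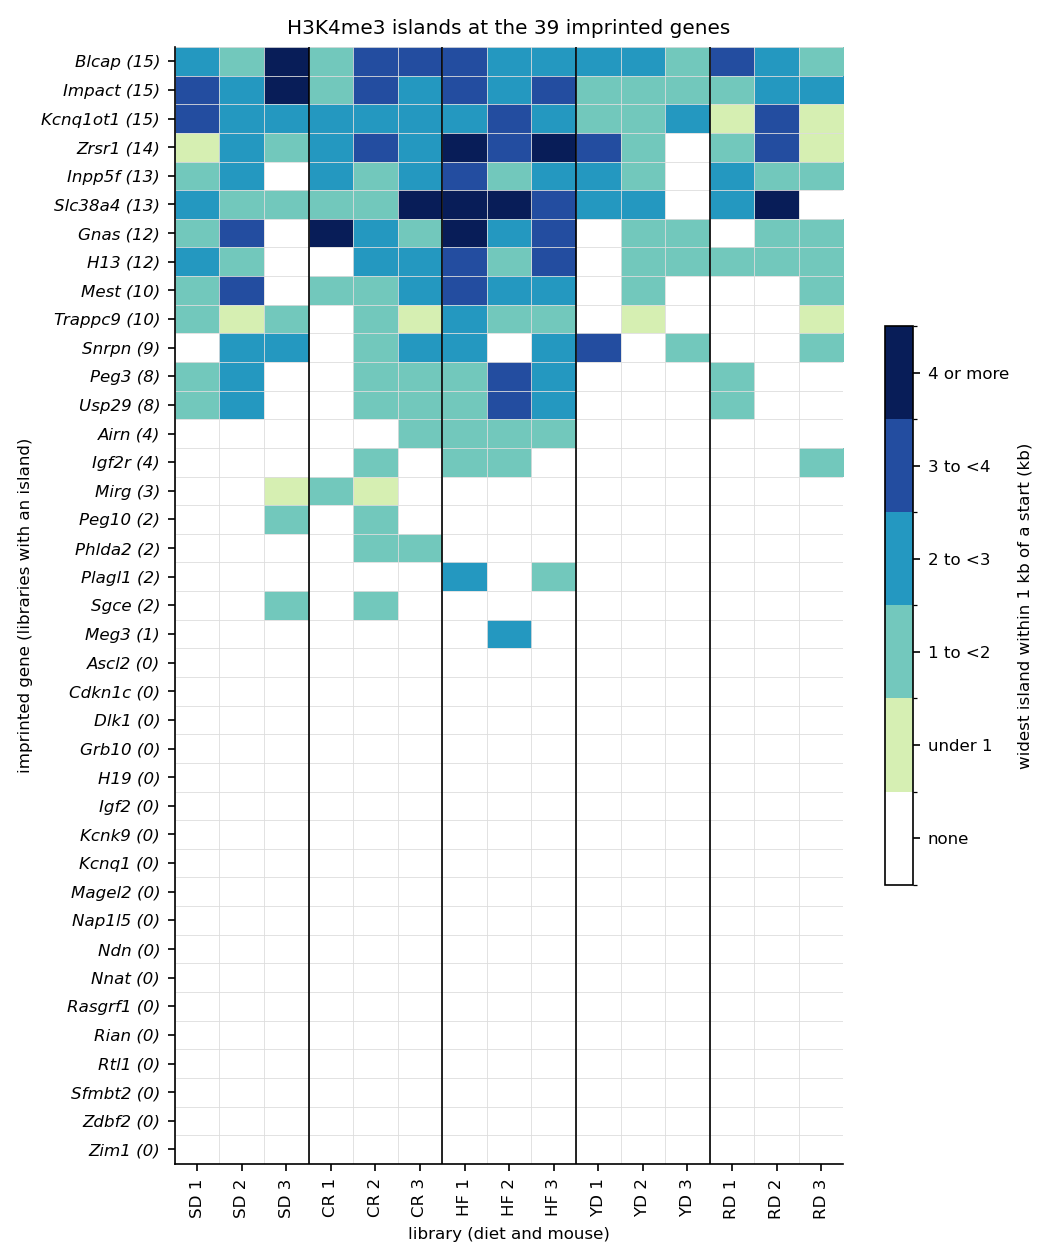
Width of the widest H3K4me3 island within 1 kb of a start of each of the 39 imprinted genes (rows, with the number of libraries with an island) in each of the 15 livers (columns, by diet and mouse), in kb and white where there was none. Blcap, Impact and Kcnq1ot1 were marked in all 15 libraries, 18 genes in none, and Airn in all 3 HF livers and in CR mouse 3.

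Among noncoding RNAs that silence their neighbours, Kcnq1ot1, the paternally expressed antisense RNA of the Kcnq1 cluster, was marked in all 15 livers and Airn, the paternally expressed antisense RNA that silences Igf2r, in 4. The Kcnq1ot1 island (gene at chr7:143203458-143296549, promoter sequence given above) measured 3400, 2000 and 2800 bp in SD, 2200, 2600 and 2600 bp in CR and 2400, 3400 and 2000 bp in HF. It measured 1800, 1400 and 2200 bp in YD and 600, 3400 and 800 bp in RD. The diets overlapped in width, and both the narrowest and a joint widest of the 15 islands were found in RD. The rank percent of its best island, which is 100 for the highest score of a list and 0 for no island, ranged from 36.2 (RD mouse 3) through a median of 71.3 to 94.6 (CR mouse 3). No contrast called Kcnq1ot1: the largest width difference was RD against SD, -1.01 ± 0.504 (SE, n = 3 against 3) on the log2(width + 200 bp) scale, with an adjusted p of 0.5 by limma.

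The other genes of the Kcnq1 cluster were seldom marked. Phlda2, a maternally expressed restraint on placental growth, had islands of 1600 and 1200 bp in CR mice 2 and 3 and none in the other 13 livers. Cdkn1c, a maternally expressed inhibitor of cyclin-dependent kinases, Ascl2, a transcription factor of the placenta, and Kcnq1, a potassium channel subunit, had no island in any list. The island nearest to a start was 12.6 kb away for Cdkn1c, 35.2 kb for Kcnq1 and 82.3 kb for Ascl2. Among its neighbours, Cd81 was marked in all 15 libraries, Tssc4 and Nap1l4 in 13 each, Dhcr7 in 9, Slc22a18 in 7, Osbpl5 in 2 and Tspan32 in none.

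Airn (chr17:12741311-12860136, plus strand) was marked in all 3 HF livers and in no SD, YD or RD liver. Its islands measured 1600, 1400 and 1800 bp in HF and 1800 bp in CR mouse 3, and were absent in CR mice 1 and 2. The HF widths therefore did not overlap with those of SD, YD and RD, all 0, and did overlap with CR. The rank percent was 40.7, 35.3 and 30.2 in HF, below the middle of each list, and 57.8 in CR mouse 3, whose list is the longest. The 4 islands began between 110 bp before and 90 bp after the first start and ended 1489 to 1889 bp after it.

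Igf2r (chr17:12682406-12769664, minus strand), the maternally expressed receptor that carries IGF2 to the lysosome, has Airn's promoter within it and was also marked in 4 livers. Its islands measured 1800 bp in CR mouse 2, 1200 and 1800 bp in HF mice 1 and 2 and 1400 bp in RD mouse 3. The libraries with an island at both promoters were HF mice 1 and 2. Its neighbours Slc22a2, Slc22a3 and Mas1 had no island in any library.

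At the Dlk1 to Dio3 cluster, Meg3, its maternally expressed long noncoding RNA, had a single island of 2200 bp, in HF mouse 2. Mirg, a microRNA host transcript of the same strand, had islands of 400 bp in SD mouse 3, 1800 bp in CR mouse 1 and 800 bp in CR mouse 2, at internal starts that lie close to annotated microRNA genes. Rian, the small nucleolar RNA host, Dlk1, a Notch-like ligand, and Rtl1, a retrotransposon-derived gene of the placenta, were marked in none. Meg3 and Mirg were marked in no YD or RD liver, and their islands lay in different mice.

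H19, the maternally expressed RNA that shares an insulator with Igf2, and Igf2, the fetal growth factor, were marked in no liver, as were their neighbours Ins2 and Th. The nearest island lay 41.7 kb from a start of H19 and 118 kb from one of Igf2. Both genes are known to be silenced in liver after birth.

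Among paternally expressed genes whose promoter lies at a control region, Impact, an inhibitor of the stress kinase GCN2, was marked in all 15 livers. Its widest island measured 3600, 2600 and 4400 bp in SD, 1600, 3200 and 2200 bp in CR and 3400, 2400 and 3000 bp in HF. It measured 1800, 1400 and 1200 bp in YD and 1600, 2400 and 2800 bp in RD. Every YD value was below every SD value, but the widest islands lay at different starts: in YD mouse 1 and CR mouse 1 only the upstream start was marked. At that start alone the widths were 1800, 1800 and 2000 bp in SD and 1800, 1000 and 0 bp in YD, which overlapped. At the starts downstream of it, SD had the widths given above and YD 0, 1400 and 1200 bp. The share of all genes with every YD width below every SD width was not counted. The difference of YD against SD was -1.15 ± 0.373 (SE, n = 3 against 3) on the log2(width + 200 bp) scale and did not pass adjustment over all genes (adjusted p = 0.0905, limma), and the median over the 14373 genes tested was -1.06 in the same contrast. The rank percent of Impact gave -28.4 in YD against SD (adjusted p = 0.149) beside a median of -22.5 over all genes tested. The direction depended on the scaling: with each library centred on its median over the genes tested, which is 0 bp in all 3 YD libraries, Impact was 1.96 higher in YD than SD (adjusted p = 0.00152). Centring added the same amount to the YD against SD difference of every gene, so this change of sign says nothing about Impact itself.

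Zrsr1, a retrogene for a splicing factor within Commd1, was marked in 14 livers. Its island was missing in YD mouse 3, and elsewhere measured 800 bp (SD mouse 1 and RD mouse 3) to 4600 bp (HF mouse 1). A start of Commd1, its host gene, lies within 1 kb of a Zrsr1 start, so an island there cannot be assigned to one of them, and Commd1 was marked in all 15 livers. Slc38a4, an amino acid transporter of liver and placenta, was marked in 13 livers, and Inpp5f, an inositol phosphatase, in 13, with widths up to 6400 bp (CR mouse 3) and 3200 bp (HF mouse 1).

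Mest, which encodes a protein of the alpha/beta hydrolase family, was marked in 10 livers, in 9 of them at the start whose window is shown above and in SD mouse 1 at an upstream start alone. Its islands measured 1400 and 3400 bp in SD mice 1 and 2, 1400, 1400 and 2200 bp in CR, 3000, 2000 and 2400 bp in HF, 1200 bp in YD mouse 2 and 1000 bp in RD mouse 3. All CR and HF livers were marked and 1 of 3 in each corn diet. Of all genes tested, 66.45 to 95.76% had an island in a CR or HF library and 32.91 to 65.41% in a YD or RD library. Mest was called by neither measure (any diet, adjusted p = 0.158 by width and 0.0746 by rank, limma).

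Snrpn, a protein of the splicing machinery at the Prader-Willi region, was marked in 9 livers, with 2 of 3 in SD, CR, HF and YD and 1 in RD. Its upstream neighbours Ndn and Magel2, both of the MAGE family and expressed in brain, were marked in none, with no island nearer than 57.6 and 40.8 kb, while Mkrn3, the next gene of the region, was marked in 8 (2 SD, 3 CR and 3 HF). The region's neighbour Ube3a, a ubiquitin ligase imprinted in neurons, was marked in all 15 libraries, and Snurf, which shares its promoter with Snrpn, in the same 9.

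Peg3, a zinc finger protein, and Usp29, a ubiquitin protease, start back to back, and a single island served both in all 8 libraries where they were marked. It measured 1600 and 2400 bp in SD mice 1 and 2, 1200 and 1800 bp in CR mice 2 and 3, 1400, 3800 and 2200 bp in HF and 1800 bp in RD mouse 1. The YD livers had none, while all HF livers had it. Of all genes tested, 32.91 to 49.24% had an island in a YD library and 88.93 to 95.76% in an HF library. YD against SD gave -2.29 ± 1.16 (SE, n = 3 against 3; adjusted p = 0.237, limma on log2(width + 200 bp)), and Zim1, the maternally expressed zinc finger gene next to Peg3, was marked in no liver.

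Other promoters at control regions were rarely or never marked. Peg10, a retrotransposon-derived gene of the placenta, and Sgce, epsilon-sarcoglycan, also start back to back and shared an island of 1600 bp in SD mouse 3 and 1000 bp in CR mouse 2. These islands ranked low, with rank percents of 5.66 and 1.5, and the 2 starts lay outside them. Plagl1, a zinc finger regulator of fetal growth, had islands of 2000 and 1200 bp in HF mice 1 and 3. Nap1l5, a retrogene within Herc3, and Zdbf2 had none, and neither had Nnat, neuronatin.

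Among maternally or tissue-specifically imprinted genes with other promoters, Blcap was marked in all 15 livers, H13, the signal peptide peptidase, in 12 and Trappc9, a subunit of a vesicle trafficking complex, in 10. Blcap's island measured 2200, 1600 and 4400 bp in SD, 1800, 3000 and 3200 bp in CR and 3000, 2200 and 2400 bp in HF, with 2200, 2000 and 1600 bp in YD and 3200, 2400 and 1800 bp in RD. Its rank percent, from 61.3 to 95.2 with a median of 88.9, overlapped between diets. Nnat lies inside Blcap, and its CpG-rich start, 6.3 kb from the marked Blcap start, had no island within 1 kb in any library, the nearest being 2592 bp away in SD mouse 3.

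Trappc9 islands measured 1400, 800 and 1400 bp in SD, 1400 and 600 bp in CR mice 2 and 3 and 2000, 1200 and 1800 bp in HF. Only YD mouse 2 (400 bp) and RD mouse 3 (600 bp) were marked in the corn diets, so that all SD widths lay above all widths of YD and RD. The difference was -2.25 ± 0.872 in YD against SD (adjusted p = 0.154) and -2.11 ± 0.872 in RD against SD (adjusted p = 0.441) on the log2(width + 200 bp) scale (SE, n = 3 against 3, limma), and neither passed. The median over all genes tested was -1.06 in YD and -0.49 in RD against SD. The share of all genes separated between diets in the way of Trappc9 was not counted. Peg13, the imprinted noncoding RNA gene within Trappc9, was marked in 13 libraries, and Kcnk9, a potassium channel imprinted in brain, in none.

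Grb10, an adapter that restrains insulin receptor signalling, Rasgrf1, a Ras exchange factor, and Sfmbt2, a Polycomb protein of the placenta, had no island in any liver. For Sfmbt2 the nearest lay 216 kb from a start. Ddc, the neighbour of Grb10, was marked in 10 libraries.

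The alternative starts of these genes were not marked alike. Starts of a gene within 1 kb of each other were merged into clusters, which gave 110 clusters, 32 of them with an island in at least 1 library. Of 18 marked genes with at least 2 clusters, 11 were marked at 1 cluster and 7 at more. At Gnas (chr2:174284320-174346744), which encodes the stimulatory G protein alpha subunit and is known to have its Nesp, XLas, untranslated and Gs alpha promoters in that order, the most downstream of these clusters was marked in 12 livers and the one before it in 5 (1 SD, 1 CR and 3 HF). The Nesp and XLas clusters had no island in any library. In 2 of the 5, CR mouse 1 (4800 bp) and HF mouse 1 (5600 bp), a single island spanned both marked clusters.

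Slc38a4 (chr15:96994820-97055956, minus strand) showed the most varied use. The cluster at its far 5′ end, at position 97055956, was marked in 3 CR, 2 SD and 2 HF livers and in no YD or RD liver, whereas an internal start at 97031211 was marked in 11, with 2 in each diet but HF, where it was 3. The share of all starts marked in other diets and in no YD or RD liver was not counted. Inpp5f was marked at its upstream start in 13 livers and in none at the CpG-rich internal cluster at chr7:128687546-128688489. H13 was marked at its upstream start in 12 livers, and Mcts2, the paternally expressed retrogene within it, in 5 (3 HF, 1 CR and 1 RD).

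CpG content was compared with H3K4me3 in a window from 500 bp before to 500 bp after each cluster. Of 31 imprinted clusters with a CpG observed to expected ratio of at least 0.6, 15 were marked in at least 1 library and 16 (51.6%) in none, against 1802 of 11084 (16.3%) such clusters of protein-coding genes unmarked. Below 0.6, 17 of 79 imprinted clusters (21.5%) and 7075 of 37254 coding clusters were marked. In all 15 libraries, 1 of the 31 CpG-rich imprinted clusters was marked (3.23%) and 15.2% of the coding ones. Clusters of 1 gene are not independent, so no test was made.

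The unmarked CpG-rich clusters had ratios of 0.618 to 1.06 and belonged to Grb10 and Igf2 (2 each), Zdbf2, Nap1l5, Inpp5f, Gnas, Cdkn1c, Dlk1, Blcap, Nnat, Rasgrf1, Ascl2, Kcnk9 and Sfmbt2. The clusters of Blcap and Nnat among them lie 71 bp apart and are 1 region. The Kcnq1ot1 start, marked in every library, had a ratio of 0.448.

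**Figure D2:**
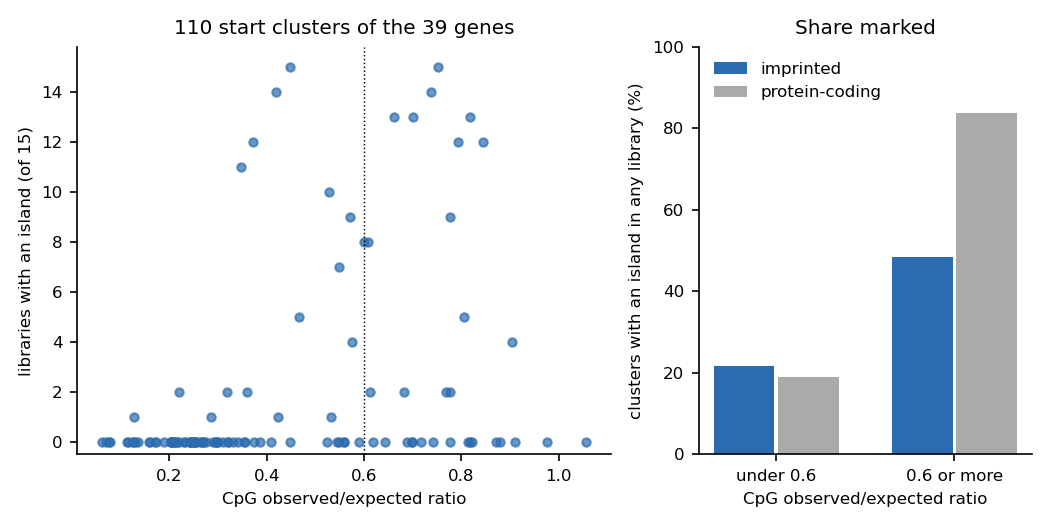
Left, the CpG observed to expected ratio of each of the 110 start clusters of the 39 imprinted genes (x axis) against the number of libraries with an island there (y axis), with a dotted line at 0.6. Right, the share of clusters with an island in any library, which was 48.4% for imprinted and 83.7% for protein-coding clusters at a ratio of at least 0.6.

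By list, 14 of 18 genes with an annotated promoter at or in a germline methylated region and 7 of 21 with a secondary or other promoter were marked in at least 1 liver. The mean share of the list marked per library was 47.0% ± 14.2 and 14.9% ± 6.20 (SD, n = 15). A mark was counted at any start of a gene, so these shares do not place the islands at the germline regions. Inpp5f, for example, was marked in 13 livers at its upstream start and in none at its CpG-rich internal cluster. Paternally expressed genes were marked in 13 of 23 cases and maternally expressed genes in 8 of 16. Of all protein-coding genes, 40.0% were marked in no library and 9.46% in all 15, and of the imprinted genes 46.2% and 7.69%. Over all annotated genes of any type these shares were 65.1% and 4.65%. Of 38 neighbouring or host genes 27 were marked, 3 of them in all 15. Of 11 factors that maintain imprints, Zfp445 and Trim28, which bind methylated control regions together, were marked in all 15, and Zfp57, Dppa3 and Dnmt3l, active in the germline and early embryo, in none.

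The number of imprinted genes marked differed between livers. It was 12, 13 and 10 in SD, 9, 18 and 15 in CR and 16, 15 and 15 in HF, with 7, 10 and 6 in YD and 9, 8 and 11 in RD. The SD livers averaged 11.7 ± 1.53 marked genes, the CR livers 14 ± 4.58, the HF livers 15.3 ± 0.577, the YD livers 7.67 ± 2.08 and the RD livers 9.33 ± 1.53 (mean ± standard deviation, n = 3). The HF libraries lay above all SD, YD and RD libraries, and YD overlapped with SD and RD. In percent of the 39 genes this was 29.9, 35.9, 39.3, 19.7 and 23.9, and in percent of protein-coding genes 39.6, 43.4, 51.2, 22.8 and 31.2, in the same order of diets.

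The imprinted share was below the protein-coding share in 14 of 15 libraries, the exception being RD mouse 3. The 33 protein-coding imprinted genes averaged 30.5%, beside 37.65% of all protein-coding genes. Against all annotated genes of any type the order was reversed, with a mean share of 19.3% beside 29.7% of the 39 imprinted genes. Where they were marked, imprinted genes ranked lower than other marked genes in 13 libraries and higher in HF mouse 2 and RD mouse 2. The median rank percent averaged 58.3 ± 15.2 for imprinted genes and 70.3 ± 6.03 for all marked genes (SD, n = 15).

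**Figure D3:**
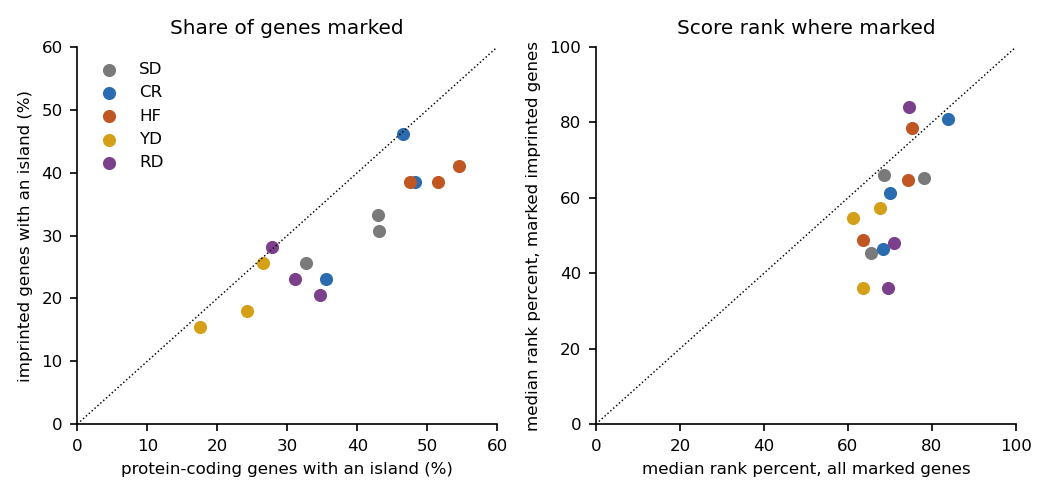
Left, percent of the 39 imprinted genes with an island against percent of protein-coding genes with an island, 1 point per library, coloured by diet; 14 of 15 points lie below the dotted line of equal shares. Right, median within-list rank percent of the marked imprinted genes against that of all marked genes, with 13 of 15 libraries below the dotted line.

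The comparison of HF with SD asked which promoters carried the mark in one diet and not in the other. Airn was the only imprinted gene with an island in all 3 HF and no SD livers (1 of the 21 imprinted genes with an island in any library, against 2.58% of all 18808 such genes), and none went the opposite way (0.0213%). Among the neighbours, Mcts2 met the same rule. With 2 of 3 livers enough, Plagl1 and Igf2r joined Airn, against 7.19% of genes. An exact test of 3 against 3 livers cannot give a p under 0.1 for 1 gene, so presence was not tested.

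Of the 39 genes, 16 had an island in at least 3 libraries and entered the fits across 14373 genes. Airn entered only through the HF livers and CR mouse 3 in which it was marked, so a difference was built into its passing. Its fitted width difference of HF against SD is therefore given as a description: it was 3.16 ± 0.738 on the log2(width + 200 bp) scale (SE, n = 3 against 3, adjusted p = 0.0341, limma), the only value among the 16 past the threshold, where 2.44% of all genes tested were called. Without the filter on libraries, it did not pass (adjusted p = 0.0674), and 0 of the 21 genes with an island were called, with 2 at an unadjusted p under 0.05. Of all 18808 genes in that fit, 1.16% were called and 11.7% had an unadjusted p under 0.05. With the filter, the median difference over all genes tested was 0.64, and after each library was centred on its median the Airn difference was 2.70 with an adjusted p of 0.132. Its rank percent was 35.4 ± 12.4 (SE) higher and did not pass (adjusted p = 0.246; 0.988% of genes called).

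The Airn value was close to the threshold. It passed in 9 of 23 alternative fits, with adjusted p from 0.00103 (without CR mouse 3) to 0.132 (library medians centred), and was lost without SD mouse 1 (0.0744), SD mouse 2 (0.0597), SD mouse 3 (0.104), HF mouse 1 (0.102) or HF mouse 3 (0.0973), and with any single YD or RD mouse left out (0.0539 to 0.0615). These fits also took Airn in through its HF islands, or with no filter, so passing in them is not support for the difference. Without CR mouse 3, the Airn islands lay in HF alone. Airn had an island in HF under both forms of the library name, ChIP in mouse 1 and PATChIP in mice 2 and 3.

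Markers of other liver cell types were counted in the same livers. Of 6 Kupffer cell markers, 3, 0 and 1 were marked in the HF livers and none elsewhere. Of 5 sinusoidal endothelial markers, 5, 2 and 3 were marked in HF, 0 to 4 in SD, 1 to 2 in CR, 0 in YD and 0 to 1 in RD, and of 5 stellate cell markers 0 to 3 in HF and 0 to 2 elsewhere. Of 4 cholangiocyte markers 0 to 2 were marked in a library. Sox9 had an island in 5 libraries and Krt7 in 1, and Krt19 and Epcam were at 0 in all 15. The ranges of HF overlapped with those of SD in every list. For the Kupffer cell markers, which had islands in HF alone, they overlapped only at the 0 of HF mouse 2. HF mouse 2 had an Airn island and 0, 2, 0 and 0 marked genes of these lists in that order. The part of these cell types in the Airn result was not tested.

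**Figure D4:**
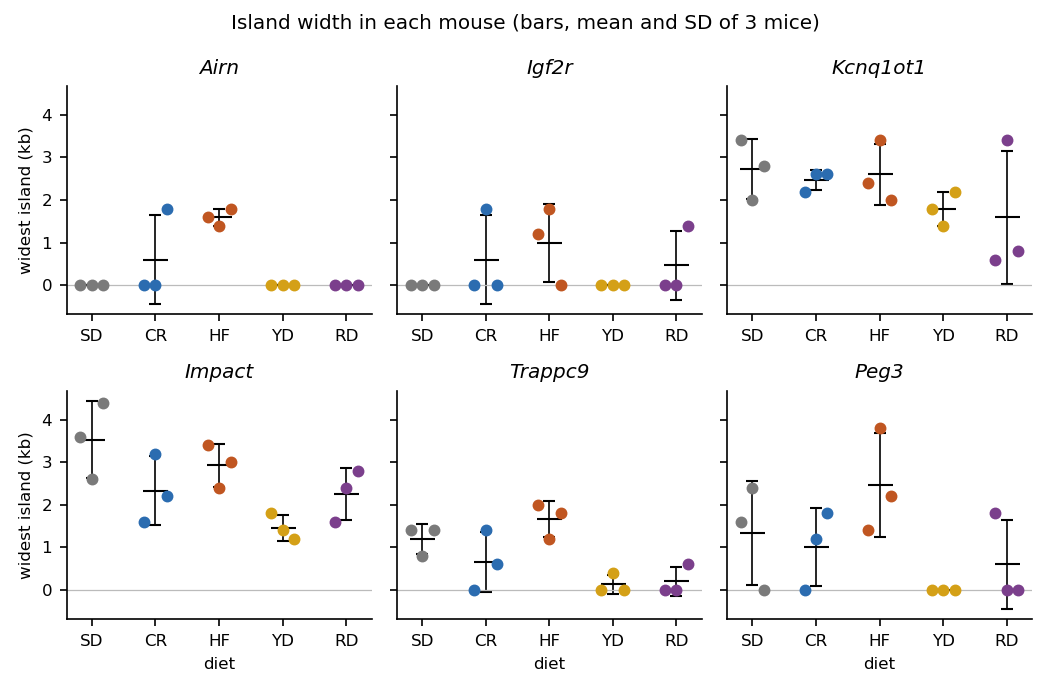
Width of the widest island at Airn, Igf2r, Kcnq1ot1, Impact, Trappc9 and Peg3 in each mouse (points, kb, 0 where there was none) by diet, with the mean and SD of 3 mice. The 3 HF livers carried an Airn island of 1400 to 1800 bp while SD, YD and RD livers had none. All Impact widths in YD, taken at the widest island of any start, lay below those in SD. The share of all genes with every YD width below every SD width was not counted.

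CR against SD and the corn diets against SD gave no imprinted gene gained or lost. For CR the share of all genes was 0.494% gained and 0.0479% lost, for YD 0.0106% gained and 4.89% lost, and for RD 0.0691% gained and 1.5% lost. RD against YD, the comparison for anthocyanins, also gave 0 of 39 in either direction (1.54% of genes gained and 0.0372% lost). With 2 of 3 livers enough, Phlda2 was gained in CR (3.08% of genes), and Peg3 with Usp29, which are 1 island, were lost in YD (13.6% of genes). Among the neighbours, Herc3, the host of Nap1l5, was marked in all SD, CR and HF livers and in no YD or RD liver, and Dhcr7 was marked in 3 SD and 0 YD livers.

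By width, limma called none of the 16 tested imprinted genes in CR against SD (0.00696% of genes called), in YD against SD (5.16%), in RD against SD (0.271%) or in RD against YD (0.904%). At an unadjusted p under 0.05 the counts were 0, 2 (Impact and Trappc9), 1 (Trappc9) and 0 of 16, beside 5.44, 23.3, 10.3 and 10.5% of all genes tested. All 16 fitted differences of YD against SD were 0 or negative, with a median of -0.54 beside -1.06 for all genes tested. Only 32.9 to 49.2% of the genes tested had an island in a YD library, against 61.0 to 80.5% in an SD library, and with library medians centred the same medians were 2.56 and 2.05 and 8 of the 16 genes were called higher in YD, where 43% of all genes tested were called. The YD differences of Impact, Trappc9 and Peg3 given above all changed sign under that scaling, which added the same amount to the difference of every gene. In HF against SD the median of the 16 was 1.29 beside 0.64, and it includes Airn and Igf2r, neither of which would have reached 3 libraries without HF, so nothing is read from it.

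By rank percent, limma called no imprinted gene in CR against SD (0% of genes called), YD against SD (1.83%), RD against SD (0%) or RD against YD (0.111%). At an unadjusted p under 0.05 the counts were 0, 1 (Impact), 1 (Trappc9) and 1 (Impact, 27.5 higher in RD than YD, adjusted p = 0.306, and -2.67 with library medians centred), beside 6.08, 24.8, 8.67 and 13% of all genes tested. Over all 5 diets in 1 test, Airn, whose entry depended on HF, passed by width (F = 6.97, adjusted p = 0.0258, 13.5% of genes called) and no imprinted gene by rank (11.8% of genes called), where 3 of 16 and 35.9% of all genes had an unadjusted p under 0.05 (Trappc9, Mest and Airn, adjusted p = 0.0739, 0.0746 and 0.120).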

How the data were processed

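H3K4me3 was measured in 1 library of each of 15 livers. Per the labels and methods, the authors aligned reads to mm10 with BWA, filtered them with SAMtools and called islands per library with SICER2. The deposited score of each island is not scaled between libraries, so only its rank within a list was used. The widest island and the best rank percent within 1 kb of any start (GENCODE M21, chromosomes 1 to 19 and X) were taken per gene. Width, as log2(width + 200 bp), and rank percent were tested with limma 3.58.1 (R 4.3.3; lmFit, eBayes with trend) on all 15 libraries without covariates, over 14373 genes of any type with an island in at least 3 libraries, with Benjamini-Hochberg adjustment and a threshold of 0.05. The 3 mice of a diet are separate animals. The count test of the study needs reads and was not used here. A gene was gained or lost when every mouse of a diet had an island and no mouse of the diet it was set against did. Groups came from the sample labels. Fits were tested on simulated data. The lists hold no read counts, so no counting interval is given and the number of mice limits precision. All 39 genes are named, and the members, role lists and comparisons were chosen with earlier results of these data known. Tables were made in Python 3.11.15 with pandas 2.3.3.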

Additional observations from a re-analysis of the deposited data

How the results depend on the processing

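Call counts below are of imprinted genes. Genes gained in HF, 1 as reported, were 0 when the start had to lie inside the island, with the same number of islands per list, with islands at or above their list's median score and with protein-coding genes only, 3 with 2 of 3 mice enough, and 1 to 2 with a mouse left out. Genes lost in YD, 0 as reported, were 1 with starts inside islands, 1 with islands of at least 600 bp, 2 with 2 of 3 mice and 0 to 2 with a mouse left out. Genes lost in CR and RD were 1 and 2 with starts inside islands, those lost in RD 0 to 1 with a mouse left out, and those gained in CR 1 with 2 of 3 mice and 0 to 1 with a mouse left out. Genes marked per liver, with starts inside islands, averaged 4 in YD and 5 in RD, beside 9.67 (SD), 9.33 (CR) and 13.3 (HF). They averaged 7.67, 8.67, 9.67, 6.67 and 5.33 (SD, CR, HF, YD, RD) with the same number of islands, and 8.33, 10.3, 10.7, 4.33 and 5.33 with islands at or above the median score, so HF was highest in all of these settings and YD lowest in all but the one with the same number of islands, where RD was.

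Width calls in HF against SD, 1 as reported, were 0 without the filter, with genes marked in every library, with library medians centred and with the same number of islands, and 0 to 1 with a mouse left out. Width calls in YD against SD were 8 with medians centred, 1 with summed widths and 0 to 1 with a mouse left out, and in RD against YD 7 with medians centred. Width calls over all diets, 1 as reported, were 0 with genes marked in every library or the same number of islands, 5 with medians centred and 0 to 2 with a mouse left out. Rank calls were 0 to 1 in HF with a mouse left out, 5 in YD with medians centred, and over all diets 1 with the name form as covariate, 7 with medians centred and 0 to 1 with a mouse left out. The centred counts are of 16 imprinted genes. By width, centring called 43% of all genes tested in YD against SD, 48.4% in RD against YD and 32.8% over all diets. By rank, it called 34% in YD against SD and 30.9% over all diets. Over all genes, width calls ranged from 0 to 396 in HF (350 as reported) and from 0 to 6184 in YD (741 as reported) across settings, and from 188 to 610 and 192 to 1522 with a mouse left out. Centring called 6183 of its 6184 genes higher in YD, against 0 of 741 as reported, and in RD against YD 0 of 6950 higher, against 128 of 130, because the median gene tested has no island in the YD libraries. The cause of the other changes was not tested.

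With the replicate number as a block, no imprinted gene was called in HF against SD by width, and Airn had an adjusted p of 0.0532. Whether same-numbered mice shared a litter or batch is not stated, and correlations between mice cannot settle it. Deviations of same-numbered mice correlated at -0.00797 on average over 30 pairs, and at 0.00411 over 60 other pairs.

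The lists hold enriched regions and no reads, so absence of an island is not absence of H3K4me3, and the width and rank of a missing island were set to 0. With 3 mice per diet, the spread between mice limits every comparison, and a promoter shared by a pair of genes was counted for both.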
